A study of Mus musculus with 6 samples.

Results

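The expression of 48 genes of mitosis and the G2/M transition was followed in mouse T cell acute lymphoblastic leukemia (T-ALL) after tamoxifen treatment meant to delete Zfx, a zinc finger transcription factor gene. The genes were taken by name from knowledge of cell division, and each was read from the probe set that carried its symbol alone, or from the brighter one where there were several. Of the 48 genes, 47 had such a probe set among 19938 genes in all, and all 47 were among the 13956 genes bright enough to be tested. Ccnb1, which encodes cyclin B1, had no probe set under its own name in the annotation used and is not analysed here.

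In the Tamoxifen group, labelled ZFX null, secondary recipient mice received 5 mg of tamoxifen a day by gavage for 3 days, from day 10 after transplant, and leukemia cells were sorted by GFP 48 h after the last dose. The Vehicle group, labelled ZFX flox, was given vehicle by gavage in place of the drug. Both groups carried retroviral Notch-IC, the active intracellular part of Notch, a Cre-ER transgene, which tamoxifen activates, together with the Zfx fl/y allele, and both grew in sublethally irradiated hosts. Each of 3 independent leukemias, lines 14843, 14844 and 14846, gave 1 array per group, so n = 3 in each group and the arrays of a line form a pair. No group received tamoxifen without Cre-ER or without the floxed allele, so drug, Cre activity and loss of Zfx cannot be told apart. The promoter of Cre-ER is not given in the sources used here.

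Entry into mitosis is driven by Cdk1 bound to cyclins A and B, switched on by Cdc25 phosphatases and amplified by Polo-like and Aurora kinases. Chromosomes then attach through kinetochores to a spindle built by motor proteins, and a checkpoint holds back the anaphase-promoting complex (APC/C) until every chromosome is attached. The genes of this program are transcribed together late in the cell cycle by the B-Myb and FoxM1 complexes, so that in bulk samples their level is widely read as a mark of cycling cells. In these sorted populations, a smaller share of cycling cells and less of each RNA per cell cannot be told apart.

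The sequence just before the start site of many of these genes carries the letters through which that program is known to act. In the 250 bases before the start, CCAAT (the box bound by NF-Y) was found on either strand in 36 of 45 member windows, 80.0%, against 33.8% of all 32851 windows in the RefSeq promoter set. TTTGAA, the core of the cell cycle homology region (CHR) bound by DREAM and MuvB complexes, was found in 16 of 45, 35.6%, against 16.0% of all windows. AGGCCT, a core of the known Zfx motif that reads the same on both strands, was found in 6 of 45, 13.3%, against 8.7%. Over the windows of genes tested on these arrays the shares were 34.2% for CCAAT, 10.7% for TTTGAA and 9.45% for AGGCCT. The windows belonged to 40 of the 48 genes, and no match of one motif overlapped a match of another in them. Some genes had more than 1 window. By gene, CCAAT was found in 31 of the 40, TTTGAA in 14 and AGGCCT in 4. Those 4 were Ccnb2, Kif4, Bub3 and Prc1, so the 6 windows with AGGCCT overstate its spread over genes. These are letter matches and not bound sites. Below are 6 of these windows (RefSeq, GRCm38.p6), with matches to the 3 motifs in capitals. Cdk1, Ccnb2 and Cdc20 hold CCAAT and TTTGAA together, and Nek2, Fam83d and Pttg1 are the members with the smallest unadjusted p for the treatment.
Cdk1, chr10:69352913-69353162, minus strand: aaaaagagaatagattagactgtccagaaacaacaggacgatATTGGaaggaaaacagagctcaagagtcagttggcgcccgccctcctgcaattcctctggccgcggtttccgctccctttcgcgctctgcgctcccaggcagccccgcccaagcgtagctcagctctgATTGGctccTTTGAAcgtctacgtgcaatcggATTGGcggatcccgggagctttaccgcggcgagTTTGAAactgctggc
Ccnb2, chr9:70421555-70421804, minus strand: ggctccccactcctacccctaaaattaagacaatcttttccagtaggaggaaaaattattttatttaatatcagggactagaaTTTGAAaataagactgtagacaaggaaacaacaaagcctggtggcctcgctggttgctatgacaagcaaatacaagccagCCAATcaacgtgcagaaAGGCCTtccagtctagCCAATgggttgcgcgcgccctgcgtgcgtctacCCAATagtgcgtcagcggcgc
Cdc20, chr4:118437344-118437593, minus strand: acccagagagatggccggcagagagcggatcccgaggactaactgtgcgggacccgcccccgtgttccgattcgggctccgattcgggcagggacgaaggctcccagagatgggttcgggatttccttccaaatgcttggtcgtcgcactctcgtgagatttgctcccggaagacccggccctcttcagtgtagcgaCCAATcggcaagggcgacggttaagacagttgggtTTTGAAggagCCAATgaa
Nek2, chr1:191821223-191821472, plus strand: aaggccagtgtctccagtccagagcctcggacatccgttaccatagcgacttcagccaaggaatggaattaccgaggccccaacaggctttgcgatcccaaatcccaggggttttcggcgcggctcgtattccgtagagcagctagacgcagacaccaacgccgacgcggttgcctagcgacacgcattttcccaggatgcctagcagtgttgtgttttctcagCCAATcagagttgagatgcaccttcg
Fam83d, chr2:158767849-158768098, plus strand: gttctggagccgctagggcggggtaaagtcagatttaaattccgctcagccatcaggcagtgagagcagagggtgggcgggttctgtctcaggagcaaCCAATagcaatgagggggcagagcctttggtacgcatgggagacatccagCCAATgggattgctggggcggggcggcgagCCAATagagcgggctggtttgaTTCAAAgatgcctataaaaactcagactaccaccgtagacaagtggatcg
Pttg1, chr11:43425982-43426231, minus strand: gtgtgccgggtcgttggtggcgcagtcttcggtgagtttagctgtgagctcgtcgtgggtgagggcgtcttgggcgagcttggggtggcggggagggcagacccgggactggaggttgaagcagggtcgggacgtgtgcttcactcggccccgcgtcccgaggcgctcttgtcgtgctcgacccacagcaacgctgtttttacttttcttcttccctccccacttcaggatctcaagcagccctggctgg
Cdk1 had 3 CCAAT matches and 2 TTTGAA matches, the nearer one 10 to 15 bases before the start. In Ccnb2, 3 CCAAT matches lay 17 to 21, 50 to 54 and 83 to 87 bases before the start, and AGGCCT lay at 65 to 70. Nek2 had 1 CCAAT match, Fam83d had 3 and a TTTGAA match on the opposite strand, and Pttg1 had no match to any of the 3 motifs.

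Values are log2 of the deposited RMA intensities, so a difference of 1 is 2-fold, and the 3 values of a group are always given in the order of lines 14843, 14844 and 14846. Correlations between arrays over all probe sets were 0.991 to 0.996. Zfx itself was at 10.96, 10.98 and 10.86 in Tamoxifen arrays, against 10.98, 10.90 and 10.72 in Vehicle arrays, a difference of 0.07 ± 0.06 (SE; limma adjusted p = 0.48). The groups overlapped, and this probe set does not check the deletion, since the position of its probes relative to the deleted part is not given in the sources used here. All 12 measured T lineage markers, among them Cd3e, Cd3g and Notch1, were above the brightness filter. Of markers of other cells, 5 of 8 monocyte and macrophage genes (Csf1r, Adgre1, Cd14, Mpeg1 and Fcgr3) and 3 of 5 measured B cell genes (Cd79a, Ms4a1 and Blnk) were below it. Above it were all 8 neutrophil markers, 4 of 5 measured NK cell markers, 4 of 5 measured erythroid markers and 5 of 6 stromal and endothelial markers. Over the 6 arrays, the markers above the filter had means of 7 to 7.7 for erythroid and 7.42 to 8.97 for neutrophil genes. T lineage markers had means of 11.1 to 13.34. Means were 7.67 to 12.58 for NK cell markers and 7.35 to 11.03 for stromal and endothelial markers. The highest of these were Gzma, for granzyme A, on the NK list at 12.58, and Pecam1, for CD31, on the endothelial list at 11.03.

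Averaged over the 3 lines, the mitotic program was at nearly the same level in Tamoxifen and Vehicle leukemias. The lines did not move alike: the median difference of the 47 genes was -0.01 in line 14843, -0.05 in line 14844 and 0.18 in line 14846. By limma with line as a block, 0 of 47 genes passed an adjusted p of 0.05, while 6.23% of all tested genes did, and the smallest adjusted p among the 47 was 0.0742. At an unadjusted p under 0.05 there were 3 members, Nek2, Pttg1 and Fam83d, against 23.8% of all tested genes. Fitted differences ran between -0.21 and 0.21, with a median of 0.04, beside a median of 0.03 over all tested genes. Of the 47, 35 were above 0 and 12 below, beside 8182 above and 5774 below among the 13956 tested genes, and the median size without sign was 0.06, beside 0.09 over all tested genes. The error was small enough to bound these differences: the 95% interval of each gene, not adjusted for the number of genes, lay within 0.4 of 0 for 45 genes and within 0.5 for all 47. A change of 2-fold, or 1 on this scale, was thus outside the interval of every one of the 47 genes. Groups did not overlap for Nek2 and Ndc80, both higher in Tamoxifen arrays, and for Fam83d, lower in them, which is 3 of 47 against 23.7% of all tested genes.

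**Figure D1:**
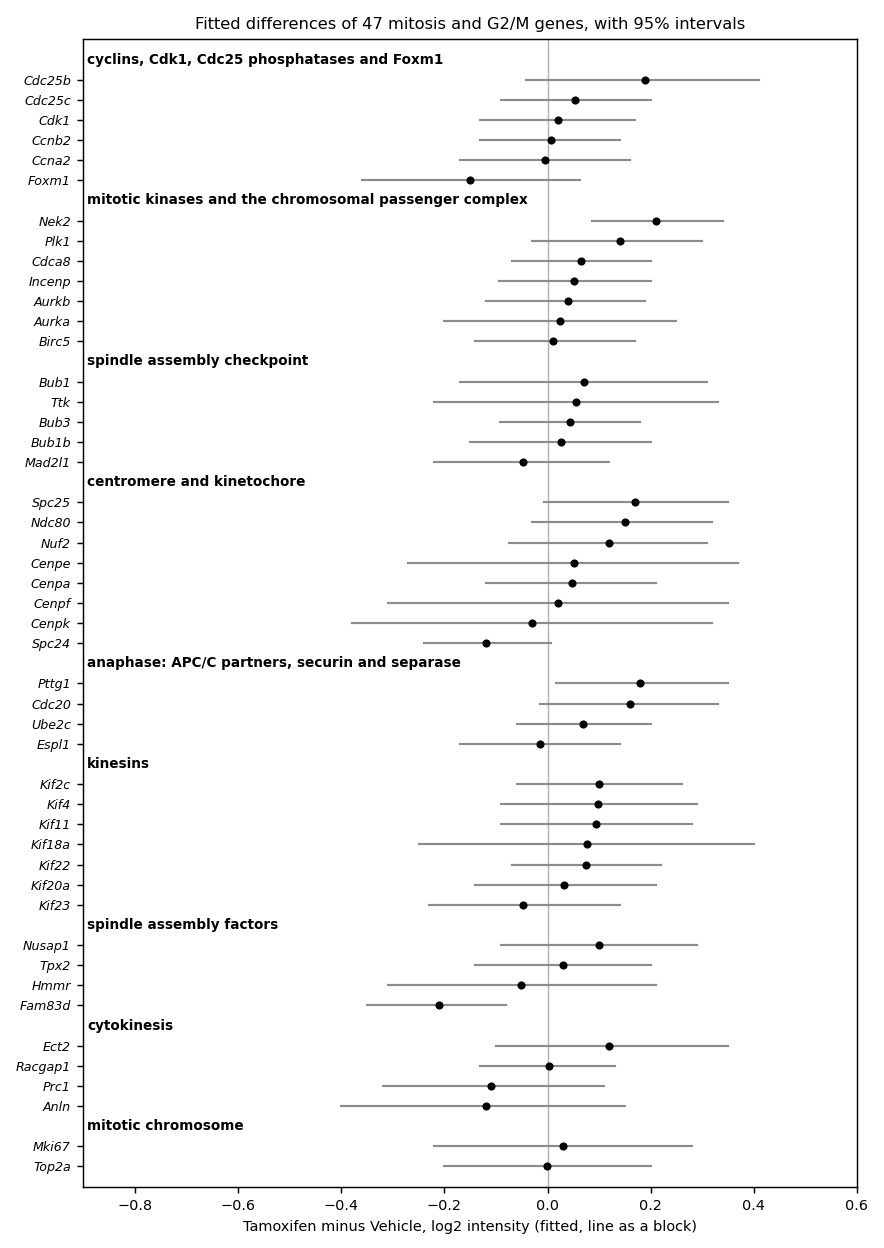
Fitted Tamoxifen minus Vehicle difference (x axis, log2 intensity, line as a block) of each of the 47 tested genes, grouped by role (y axis). Points are estimates and bars are unadjusted 95% intervals; all points lie between -0.21 and 0.21, and the bars of Nek2 and Pttg1 (above 0) and of Fam83d (below 0) clear the zero line.

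Cdk1 and the cyclins, the engine of mitotic entry, were closely matched between groups. Cdk1 was at 12.44, 12.60 and 12.64 in Tamoxifen arrays, against 12.45, 12.66 and 12.51 in Vehicle arrays. Its mean was 12.56 ± 0.10 with Tamoxifen and 12.54 ± 0.11 with Vehicle (SD, n = 3 each), with overlapping values and a difference of 0.02 (95% interval -0.13 to 0.17). Ccna2, which encodes the cyclin that bridges S phase and G2, was at 12.87, 12.99 and 13.03 in Tamoxifen arrays, against 12.96, 13.05 and 12.89 in Vehicle arrays. Ccnb2, for cyclin B2, was at 12.80, 12.85 and 12.86 in Tamoxifen arrays, against 12.73, 12.85 and 12.91 in Vehicle arrays. Both differed by less than 0.01, with intervals of -0.17 to 0.16 for Ccna2 and -0.13 to 0.14 for Ccnb2.

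The phosphatases that activate Cdk1, and Foxm1, did not pass the test in either direction. Cdc25b was at 11.13, 11.06 and 11.66 in Tamoxifen arrays, against 10.77, 11.12 and 11.40 in Vehicle arrays, a difference of 0.19 ± 0.09 (SE; limma adjusted p = 0.286). It was higher in Tamoxifen arrays of lines 14843 and 14846 and not of line 14844, and line 14846 had the highest value of each group. Its relative Cdc25c was at 9.22, 9.41 and 9.55 in Tamoxifen arrays, against 9.18, 9.44 and 9.40 in Vehicle arrays, a difference of 0.05 ± 0.06 with overlapping groups. Foxm1, which encodes the forkhead factor that drives G2/M transcription, was at 10.81, 11.01 and 11.06 in Tamoxifen arrays, against 11.10, 11.23 and 10.99 in Vehicle arrays. It differed by -0.30 in line 14843, -0.21 in line 14844 and 0.07 in line 14846, for a fitted difference of -0.15 ± 0.08 (adjusted p = 0.347).

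Among mitotic kinases Nek2, which separates centrosomes at mitotic entry, came nearest to the threshold. It was at 10.56, 10.72 and 10.74 in Tamoxifen arrays, against 10.36, 10.47 and 10.55 in Vehicle arrays. Every Tamoxifen array was above every Vehicle array, and the pairs differed by 0.20, 0.24 and 0.19. The fitted difference was 0.21 ± 0.05 (SE), or 1.16-fold, with an unadjusted p of 0.00656 and a limma adjusted p of 0.0742. Plk1, the Polo-like kinase needed for spindle formation and cytokinesis, was at 11.99, 12.11 and 12.28 in Tamoxifen arrays, against 11.85, 12.11 and 12.02 in Vehicle arrays. Its difference was 0.14 ± 0.07 (adjusted p = 0.287), close to 0 in line 14844 and largest in line 14846, at 0.27.

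Aurora kinases and the chromosomal passenger complex, which corrects faulty attachments, had fitted differences of 0.07 or less. Aurka, the kinase of the spindle poles, was at 11.03, 11.09 and 11.29 in Tamoxifen arrays, against 11.04, 11.26 and 11.03 in Vehicle arrays. Aurkb, the catalytic subunit of the complex, was at 12.10, 12.34 and 12.39 in Tamoxifen arrays, against 12.15, 12.33 and 12.23 in Vehicle arrays. Birc5, for the subunit survivin, was at 11.11, 11.31 and 11.38 in Tamoxifen arrays, against 11.17, 11.36 and 11.24 in Vehicle arrays. For all 3 genes the groups overlapped and the highest Tamoxifen array was that of line 14846. Fitted differences were 0.03 for Aurka (95% interval -0.20 to 0.25), 0.04 for Aurkb (-0.12 to 0.19) and 0.01 for Birc5 (-0.14 to 0.17), and the scaffold Incenp differed by 0.05. Cdca8, for the subunit borealin, was at 10.99, 11.05 and 11.15 in Tamoxifen arrays, against 10.86, 11.05 and 11.08 in Vehicle arrays, a difference of 0.07. Adjusted p-values of these 5 genes were 0.493 to 0.929.

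The spindle assembly checkpoint gave 0 of 5 members at an unadjusted p under 0.05, against 23.8% of all tested genes, a count too small to set it apart. Bub1, a kinase that recruits checkpoint proteins to kinetochores, was at 11.71, 11.82 and 11.83 in Tamoxifen arrays, against 11.79, 11.87 and 11.48 in Vehicle arrays. Ttk, for the kinase Mps1 that starts the signal, was at 10.03, 10.21 and 10.27 in Tamoxifen arrays, against 10.17, 10.27 and 9.89 in Vehicle arrays. In both genes the low value was that of the Vehicle array of line 14846, and lines 14843 and 14844 differed slightly the other way. Bub3, which anchors Bub1 at kinetochores, was at 11.74, 11.76 and 11.86 in Tamoxifen arrays, against 11.62, 11.78 and 11.84 in Vehicle arrays. Mad2l1, for the APC/C inhibitor Mad2, was at 12.48, 12.66 and 12.65 in Tamoxifen arrays, against 12.61, 12.78 and 12.55 in Vehicle arrays. Groups overlapped in all of these genes; Bub1b, for the inhibitor BubR1, differed by 0.03, and adjusted p-values of the 5 genes were 0.656 to 0.846.

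Centromere and kinetochore genes had fitted differences on both sides of 0, without passing the test. Subunits of the Ndc80 complex, which grips microtubule ends, had differences of 0.15 for Ndc80, 0.12 for Nuf2, 0.17 for Spc25 and -0.12 for Spc24. Spc25 was at 10.50, 10.65 and 10.69 in Tamoxifen arrays, against 10.45, 10.52 and 10.35 in Vehicle arrays (limma adjusted p = 0.222). Its partner Spc24 was at 9.63, 9.82 and 9.88 in Tamoxifen arrays, against 9.77, 9.91 and 10 in Vehicle arrays (adjusted p = 0.230). All 3 lines were higher with Tamoxifen for Spc25, as for 28.6% of all tested genes, and lower for Spc24, as for 20.2%. Spc24 and Spc25 form a pair in the complex. Ndc80 was at 10.87, 10.95 and 10.85 in Tamoxifen arrays, against 10.84, 10.85 and 10.55 in Vehicle arrays, so the groups met near 10.85 without overlapping.

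The kinetochore genes Cenpf, Cenpe and Cenpk were among the genes with the widest spread. Cenpf was at 10.35, 10.25 and 10.37 in Tamoxifen arrays, against 10.62, 10.33 and 9.96 in Vehicle arrays, so both the highest and the lowest values were Vehicle. Cenpe, a kinesin that moves chromosomes to the spindle equator, was at 10.81, 10.74 and 10.88 in Tamoxifen arrays, against 10.91, 10.92 and 10.44 in Vehicle arrays. Cenpk, of the inner kinetochore, was at 9.20, 9.42 and 9.49 in Tamoxifen arrays, against 9.41, 9.71 and 9.08 in Vehicle arrays. Each of these 3 genes was lower with Tamoxifen in lines 14843 and 14844 and higher by 0.40 to 0.44 in line 14846, and their SEs were 0.13 to 0.14. Cenpa, the histone H3 variant that marks centromeres, differed by 0.05 ± 0.07 (SE).

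Of the anaphase genes, Pttg1, which encodes the separase inhibitor securin, differed between lines by more than between groups. It was at 10.18, 10.84 and 10.73 in Tamoxifen arrays, against 9.85, 10.70 and 10.66 in Vehicle arrays. Both arrays of line 14843 lay below all others, while within each line the Tamoxifen array was higher, by 0.33, 0.14 and 0.08. The treatment difference was 0.18 ± 0.07 (SE; unadjusted p = 0.0365, limma adjusted p = 0.181). Cdc20, the activator of the APC/C, was at 10.94, 10.97 and 11.16 in Tamoxifen arrays, against 10.70, 10.97 and 10.93 in Vehicle arrays, a difference of 0.16 ± 0.07 (adjusted p = 0.240). The Cdc20 arrays of line 14844 were level, and the other 2 lines were higher with Tamoxifen. Ube2c, the ubiquitin-conjugating enzyme of the APC/C, was at 11.89, 12 and 11.96 in Tamoxifen arrays, against 11.85, 11.97 and 11.84 in Vehicle arrays, a difference of 0.07. Espl1, for separase itself, differed by -0.02.

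The 7 Kif genes among the 47 encode kinesin motors of the spindle. All were highest in the Tamoxifen array of line 14846, against 17% of all tested genes. The same held for all 7 kinase and passenger genes, so it is not particular to kinesins. The kinesin Cenpe was highest in the Vehicle array of line 14844, at 10.92. Kif11, for the motor Eg5 that pushes spindle poles apart, was at 12.42, 12.44 and 12.49 in Tamoxifen arrays, against 12.42, 12.44 and 12.21 in Vehicle arrays. Its pairs in lines 14843 and 14844 differed by less than 0.01, and the pair in line 14846 by 0.28. Kif18a, which shortens microtubules at kinetochores, was at 10.07, 10.08 and 10.26 in Tamoxifen arrays, against 10.17, 10.23 and 9.78 in Vehicle arrays, and its 0.47 in line 14846 was the largest within-line difference of the 47 genes. Fitted differences of the 7 kinesins were -0.05 to 0.10, with adjusted p-values from 0.393 to 0.811. The microtubule depolymerase Kif2c was at 10.87, 11.08 and 11.11 in Tamoxifen arrays, against 10.78, 11.09 and 10.89 in Vehicle arrays. The chromosome-arm motor Kif4 was at 10.29, 10.39 and 10.49 in Tamoxifen arrays, against 10.27, 10.41 and 10.20 in Vehicle arrays. Kif22, another motor of chromosome arms, was at 10.57, 10.59 and 10.77 in Tamoxifen arrays, against 10.49, 10.60 and 10.61 in Vehicle arrays. In these 3 genes line 14844 was level to within 0.02, and the groups overlapped. The cytokinesis motors Kif20a and Kif23 differed by 0.03 and -0.05.

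Among spindle assembly factors Fam83d, which brings casein kinase 1 to the spindle, was lower in Tamoxifen arrays. It was at 9.36, 9.40 and 9.42 in Tamoxifen arrays, against 9.50, 9.65 and 9.68 in Vehicle arrays. The groups did not overlap, and pairs differed by -0.14, -0.25 and -0.26. The fitted difference was -0.21 ± 0.05 (SE), 1.16-fold lower, with an unadjusted p of 0.00868 and a limma adjusted p of 0.0858. Nusap1, which bundles spindle microtubules, was at 12.17, 12.22 and 12.24 in Tamoxifen arrays, against 12.18, 12.19 and 11.94 in Vehicle arrays, a difference of 0.10 ± 0.08. Hmmr, a spindle-associated protein also known as the hyaluronan receptor RHAMM, was at 10.08, 10.21 and 10.33 in Tamoxifen arrays, against 10.22, 10.47 and 10.08 in Vehicle arrays. Both had overlapping groups, and Tpx2, the activator of Aurora A on the spindle, differed by 0.03.

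Cytokinesis genes leaned both ways, with no call. Ect2, needed to form the cleavage furrow, was at 12.14, 12.22 and 12.35 in Tamoxifen arrays, against 12.11, 12.25 and 11.98 in Vehicle arrays, a difference of 0.12 ± 0.09 (SE). Its partner Racgap1 differed by 0.0022 (95% interval -0.13 to 0.13). Prc1, which bundles midzone microtubules, was at 10.59, 10.69 and 10.82 in Tamoxifen arrays, against 10.84, 10.89 and 10.69 in Vehicle arrays, a difference of -0.11 ± 0.09. Anln, for the ring scaffold anillin, was at 10.64, 10.99 and 10.89 in Tamoxifen arrays, against 11.02, 11.16 and 10.72 in Vehicle arrays, a difference of -0.12 ± 0.11. Prc1 and Anln were lower with Tamoxifen in lines 14843 and 14844 and higher in line 14846, and limma adjusted p-values of the 4 genes were 0.446 to 0.984.

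The common proliferation markers differed little between the group means. Mki67, which encodes Ki-67, was at 12.84, 12.86 and 12.96 in Tamoxifen arrays, against 13.01, 12.91 and 12.64 in Vehicle arrays. Top2a, for the topoisomerase that disentangles chromosomes, was at 12.59, 12.75 and 12.80 in Tamoxifen arrays, against 12.73, 12.83 and 12.59 in Vehicle arrays. Their differences were 0.03 ± 0.10 for Mki67 and -0.0011 ± 0.08 for Top2a (SE), and in both genes Tamoxifen was lower in lines 14843 and 14844 and higher in line 14846. Top2a was the only member with another single-symbol probe set, far dimmer, which averaged 6.87 in Tamoxifen arrays and 7.13 in Vehicle arrays and was lower with Tamoxifen in all 3 lines, with differences of -0.36 to -0.18. With the 2 sets averaged, the Top2a difference became -0.13 (adjusted p = 0.30).

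**Figure D2:**
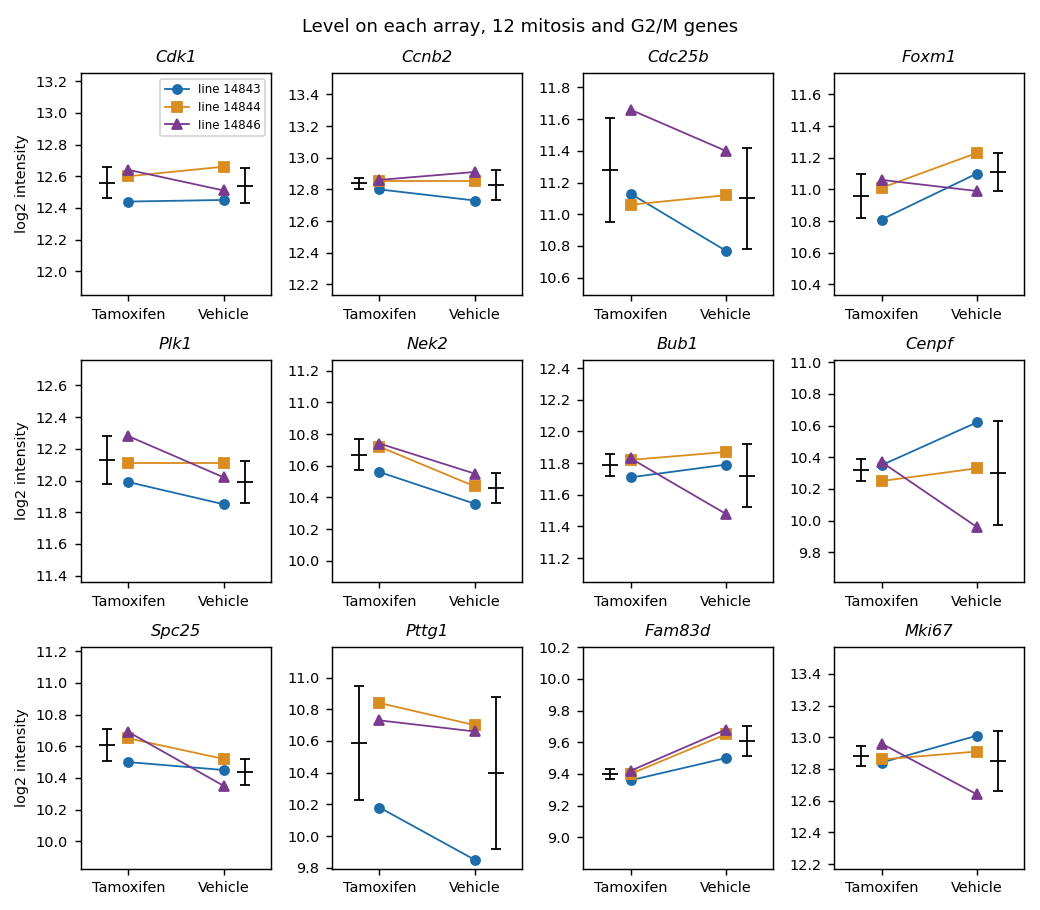
Level on each array (y axis, log2 intensity, each panel spanning the same range) of 12 genes in Tamoxifen arrays (left) and Vehicle arrays (right), with lines joining the arrays of a leukemia and black marks giving the mean ± SD (n = 3). Nek2 separates into higher Tamoxifen and lower Vehicle values, Fam83d does the reverse, Pttg1 is low in both arrays of line 14843, and in Bub1, Cenpf and Mki67 the Vehicle array of line 14846 is the lowest.

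The share of genes above 0 differed from leukemia to leukemia. In line 14846, 44 of 47 genes were higher in the Tamoxifen array, 93.6%, against 55.3% of all tested genes, with a median difference of 0.18 against 0.02. In line 14843 it was 20 of 47, 42.6% against 54.5%, with a median of -0.01. In line 14844 it was 11 of 47, 23.4% against 56.6%, with a median of -0.05. The exceptions in line 14846 were Ccnb2, Spc24 and Fam83d. Differences above 0.2 were reached by 21 genes in line 14846, against 10.3% of all tested genes, by 4 genes in line 14843 against 12.9%, and by 1 gene, Nek2, in line 14844 against 10.7%. Differences below -0.2 were reached by 5 genes in line 14843 against 15.3% of all tested genes, by 5 in line 14844 against 11.1% and by 1, Fam83d, in line 14846 against 16%. In none of the 3 lines was the members' share below -0.2 larger than that of all tested genes. Each line has 1 pair of arrays, so a difference between lines in the response has no replicate and was not tested.

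The leaning of line 14846 was seen in each role. All 7 kinase and passenger genes, all 5 checkpoint genes, all 4 anaphase genes, all 7 kinesins and all 4 cytokinesis genes were higher in its Tamoxifen array, as were 7 of 8 kinetochore genes, 5 of 6 entry genes, 3 of 4 spindle assembly factors and both Mki67 and Top2a. The median difference there was 0.32 for kinetochore genes, 0.22 for kinesins and 0.14 for Cdk1, its cyclins, phosphatases and Foxm1. In line 14844, 0 of the 6 entry genes, 0 of 5 checkpoint genes and 0 of 4 cytokinesis genes were higher, but 5 of 7 kinase and passenger genes were. The pattern lower, lower and higher over lines 14843, 14844 and 14846 was that of 21 of 47 genes, 44.7%, against 8.1% of all tested genes. It included Cdk1, Ccna2, Foxm1, Aurka, Bub1, Mki67 and Top2a. The sign was the same in all 3 lines for 9 genes: Nek2, Plk1, Cdca8, Ndc80, Spc25, Pttg1 and Ube2c were higher in each, which is 7 genes against 28.6% of all tested genes, and Spc24 and Fam83d were lower in each, against 20.2%.

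**Figure D3:**
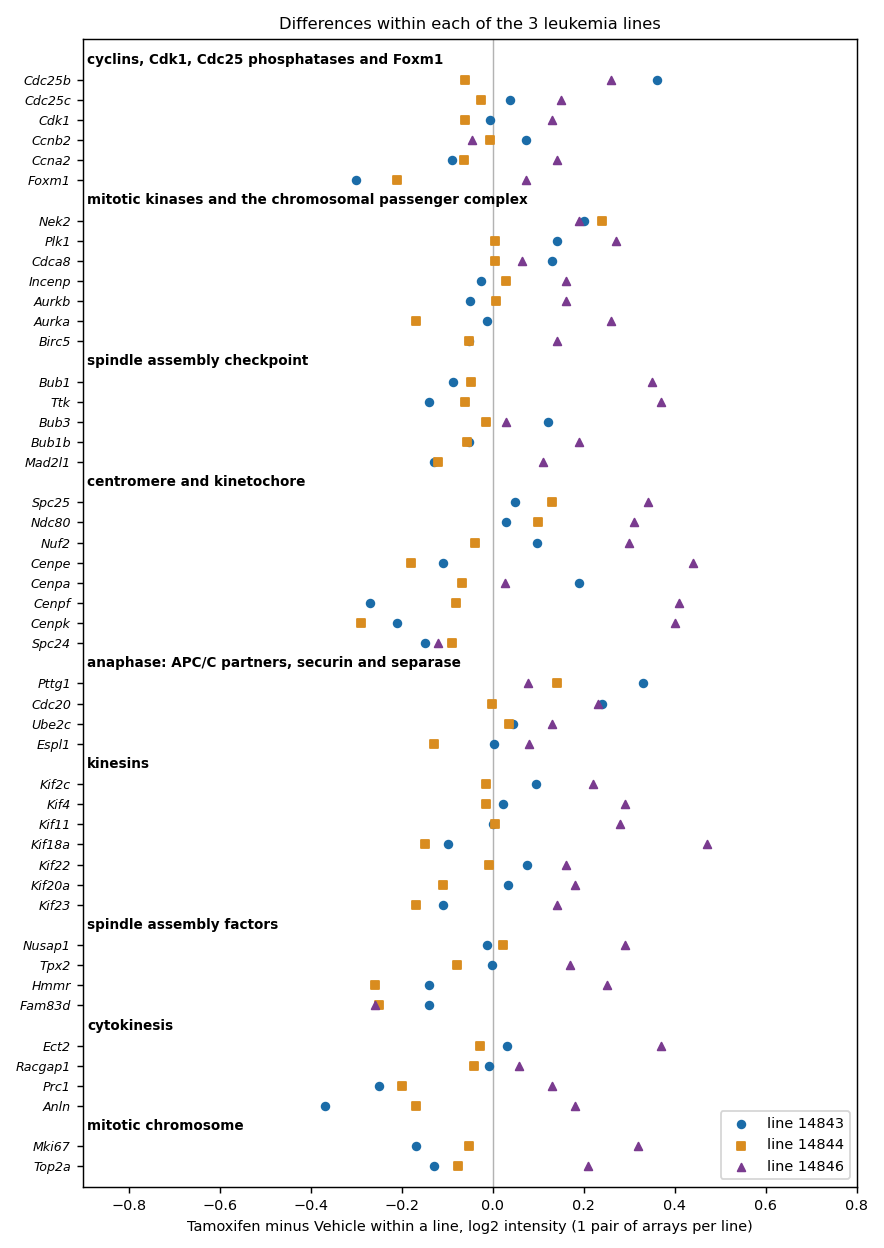
Tamoxifen minus Vehicle difference within each line (x axis, log2 intensity, 1 pair of arrays per line) for the 47 genes grouped by role (y axis). Triangles of line 14846 lie right of 0 for 44 genes, while squares of line 14844 lie left of 0 for most and circles of line 14843 fall on both sides.

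By array, the Tamoxifen array of line 14846 held the highest of the 6 values for 26 of the 47 genes, against 17% of all tested genes, and the lowest for 0 against 11.6%. The Vehicle array of line 14844 held the highest value for 13 genes against 11.9%, and the lowest for 0 against 19.1%. The highest value was on the Tamoxifen array of line 14844 for 3 genes against 12%, on the Vehicle array of line 14846 for 3 against 19.5%, and on the Tamoxifen and the Vehicle array of line 14843 for 0 against 21.7% and 2 against 17.9%. The lowest value fell on the Vehicle array of line 14846 for 16 genes, against 22.4% of all tested genes, and on the Tamoxifen and the Vehicle array of line 14843 for 15 each, against 17.2% and 21%, which leaves 1 gene on the Tamoxifen array of line 14844, against 8.68%. The mean log2 intensity over the 47 genes was 11.09, 11.21 and 11.30 in Tamoxifen arrays, against 11.11, 11.27 and 11.10 in Vehicle arrays. Over all tested genes these means were 9.23 to 9.24 in Tamoxifen arrays and 9.23 to 9.26 in Vehicle arrays. Without line 14846 the median fitted difference of the 47 genes was -0.03, against 0.04 with it.

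Markers of other cells and of the T lineage also differed within some pairs. In line 14846, T lineage markers were lower in the Tamoxifen array for 11 of 12 genes, at a summed linear intensity of 50244 against 56311 with Vehicle, and over all lines their sums were 50244 to 58228 in Tamoxifen arrays and 56311 to 60910 in Vehicle arrays. B cell markers in line 14846 summed to 713 with Tamoxifen against 1061 with Vehicle, mostly through Cd79b, which differed by -0.91, and over all lines to 657 to 734 against 586 to 1061. The sums furthest above Vehicle within a pair were in the other lines. In line 14843, NK cell markers summed to 7431 with Tamoxifen against 4979 with Vehicle, or 1.49 times. That rise came mostly through Gzma, at 12.66 against 12.01, while Klrb1c differed by 0.88, Nkg7 by -0.11 and Prf1 by 0.02. Neutrophil markers summed to 3308 with Tamoxifen against 2495 with Vehicle in line 14844, or 1.33 times. B cell markers summed to 734 with Tamoxifen against 586 with Vehicle in line 14843, or 1.25 times, mostly through Cd79b, at 8.66 against 8.01. Over all lines, NK cell markers summed to 7428 to 8803 in Tamoxifen arrays and 4979 to 9232 in Vehicle arrays, neutrophil markers to 1555 to 3308 and 1518 to 2495, and monocyte and macrophage markers to 1213 to 1479 and 1175 to 1411. Erythroid markers summed to 756 to 831 in Tamoxifen arrays and 755 to 779 in Vehicle arrays, and stromal and endothelial markers to 3459 to 3629 and 3224 to 3457. No marker passed the treatment test, beside 6.23% of all tested genes, and the markers are few. Their part in the result was not tested.

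Genes of the preceding phases were set beside these, from a list of G1/S and replication genes. Of 48 tested G1/S and DNA replication genes, 45 were higher with Tamoxifen in line 14846, with a median of 0.19, and 14 in line 14844, with a median of -0.02, against 55.3% and 56.6% of all tested genes. In line 14843, 39 of these 48 genes were higher, with a median of 0.09, against 54.5% of all tested genes, where 20 of the 47 mitotic genes were. By limma, 0 of the 48 passed an adjusted p of 0.05 against 6.23% of all tested genes, 7 had an unadjusted p under 0.05 against 23.8%, and the smallest adjusted p-values were those of Rfc3, of the clamp loader, at 0.0619 and of Orc1, of the origin recognition complex, at 0.0782.

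**Figure D4:**
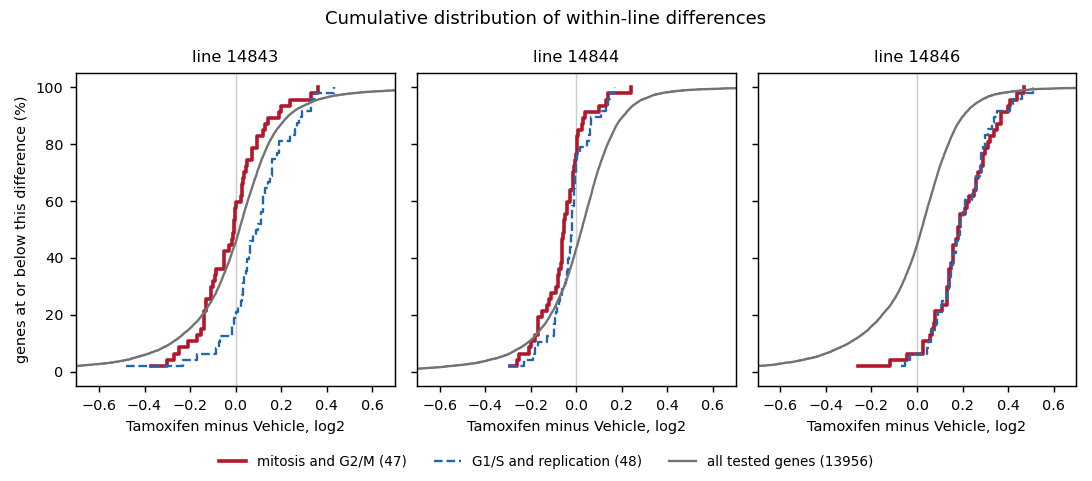
Share of genes (y axis, %) at or below each within-line Tamoxifen minus Vehicle difference (x axis, log2 intensity) in each line, for the 47 mitotic genes, 48 G1/S genes and all 13956 tested genes. In line 14846 both cell cycle curves lie right of the curve for all genes, with medians of 0.18 and 0.19 against 0.02, and in line 14843 they separate, at -0.01 and 0.09.

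Between the 3 leukemias, averaged over treatment, 1 of the 47 genes passed the moderated F test of limma, against 3.11% of all tested genes. Pttg1 averaged 10.02 ± 0.23 in line 14843, 10.77 ± 0.10 in line 14844 and 10.69 ± 0.05 in line 14846 (SD, n = 2 arrays each, 1 Tamoxifen and 1 Vehicle), with a limma adjusted p of 0.0194. The SD of a line, here and below, thus reflects the treatment difference and is not a spread of replicates. Lines 14844 and 14846 were close, and without line 14843 the adjusted p was 0.743; it was also lost without line 14844, at 0.0677. Cdc25b, Cdc25c, Spc24 and Kif2c had unadjusted p-values under 0.05 for line, which with Pttg1 makes 5 of 47, against 19.3% of all tested genes. Cdc25b spanned the most of these 4, at 11.53 ± 0.18 in line 14846 against 10.95 ± 0.25 in line 14843 and 11.09 ± 0.04 in line 14844 (SD, n = 2; adjusted p = 0.10). Line means of the other 45 genes lay within 0.32 of each other.

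In the wider mitotic machinery, 3 of 106 other tested genes changed, 1 higher and 2 lower, against 1.3% and 4.93% of all tested genes in those directions. At an unadjusted p under 0.05 there were 17 of the 106, against 23.8% of all tested genes. The 106 came from a list of 109 genes of the APC/C, condensin and cohesin, further kinetochore and spindle proteins and regulators of mitotic entry. Mad2l2, whose product binds APC/C activators and also serves DNA polymerase zeta, rose, at 9.82, 9.88 and 9.82 in Tamoxifen arrays against 9.38, 9.47 and 9.45 in Vehicle arrays. Its difference was 0.41 ± 0.05 (SE), or 1.33-fold, with a limma adjusted p of 0.0154. Cdc26, a small APC/C subunit, fell, at 10.13, 10.28 and 10.28 in Tamoxifen arrays against 10.46, 10.49 and 10.70 in Vehicle arrays, a difference of -0.32 ± 0.06 (adjusted p = 0.0446). Kif3a, a kinesin-2 motor known mainly for transport in cilia, fell, at 7.31, 7.49 and 7.02 in Tamoxifen arrays against 7.91, 7.89 and 7.52 in Vehicle arrays, a difference of -0.50 ± 0.06 (adjusted p = 0.0141). Groups did not overlap in any of the 3 genes, as in 23.7% of all tested genes. Since the 3 were picked by their p on these same arrays, this adds no support. Without line as a block, Mad2l2 kept its call at an adjusted p of 0.0233, and Cdc26 and Kif3a lost theirs, at 0.129 and 0.187. Without line 14844 all 3 were lost, at 0.119 for Mad2l2, 0.139 for Cdc26 and 0.0836 for Kif3a, and Cdc26 was also lost without line 14843 or 14846, at 0.117 and 0.104.

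Other genes of that machinery stayed short of the threshold. Of the 15 APC/C genes, 9 had fitted differences below 0, beside 5774 of the 13956 tested genes. Condensin and cohesin gave 0 of 20 called, against 6.23% of all tested genes, and 15 of 20 above 0, beside 8182 of 13956, with Ncapg, a condensin subunit, at 0.24 ± 0.09 (SE; limma adjusted p = 0.176) and Smc1a, of cohesin, at 0.13 ± 0.07 (adjusted p = 0.310). Bora, an activator of Aurora A, differed by 0.23 ± 0.05 (adjusted p = 0.0599), and the kinase Melk by 0.28 ± 0.06 (adjusted p = 0.0603). The gene nearest the threshold was lower: the kinetochore gene Dsn1 differed by -0.33 ± 0.07 (adjusted p = 0.0583). The Tamoxifen array was higher for 41 of the 106 genes in line 14843, 46 in line 14844 and 91 in line 14846, against 54.5%, 56.6% and 55.3% of all tested genes. Those 91 included all 20 genes of condensin and cohesin and 7 of the 15 of the APC/C list.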

How the data were processed

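RNA of sorted leukemia cells was measured on 6 one-colour Affymetrix arrays. The authors deposited probe set intensities on a linear scale, for which the submitters' processing notes name RMA and version 1.1 of the Affymetrix Expression Console; no other setting is given in the sources used here. RMA equalises the distribution of values across arrays, so a shift of all genes together would not be seen. Arrays have no read depth, and their number limits the precision.

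Of 35556 probe sets, 21789 had 1 gene symbol, and these gave 19938 genes; the brightest probe set stood for each. Two-sided tests ran on log2 intensities with limma 3.58.1 (R 4.3.3), line and treatment as terms, over the 13956 genes at or above the 30th percentile of mean level (6.70), with Benjamini-Hochberg adjustment over all of them and a threshold of 0.05. Line was the block because cells of each line went to both treatments; deviations from group means correlated at 0.64, 0.68 and 0.68 within lines. Residual degrees of freedom were 2 per gene before moderation, whose prior carried 3.47. The steps were tested on simulated data. Alternatives were the fit without the block, other brightness filters, median centring, averaged probe sets, other moderation and each line left out.

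The genes and lists were chosen with earlier results of these data known. All members could be named; values on every array are given for those called for treatment or line, the 3 of each role with the smallest treatment p, the 5 with the smallest line p, a fixed set of chief regulators and proliferation markers, and Ccna2, Ccnb2, Ttk, Cenpe, Cenpf, Cenpk, Kif11 and Kif18a, added after their values were seen. Of each other list, the called genes are named, or the 2 with the smallest p, and Dsn1 was added after its values were seen.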

Additional observations from a re-analysis of the deposited data

How the results depend on the processing

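The count of 0 changed mitosis and G2/M genes was the same without line as a block, with no brightness filter, with a filter at the 50th percentile, with arrays centred on their medians, with probe sets averaged, with trend and robust moderation, and without any 1 line. Across these settings the smallest adjusted p of the 47 genes lay between 0.0688 and 0.179, and 2 to 8 genes had an unadjusted p under 0.05. The pairing by line changed the calls of other genes: without the replicate block 1 of the 106 other mitosis genes was called in place of 3, and leaving out 1 line gave 0 to 3; the other settings gave 2 to 4. The number of members that differed between lines was 1 with other filters, centring, averaged probe sets and other moderation (the fit without the block has no line term), and 0 to 1 when 1 line was left out, an alternative chosen after seeing the data. The median difference of the 47 genes was 0.03 with centred arrays and -0.03 to 0.09 when 1 line was left out. Without the block, 295 of all tested genes were called in place of 870; leaving out 1 line gave 498 without line 14843, 70 without line 14844 and 669 without line 14846.

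Small differences changed sign with the setting, and none of them passed the test. Centring gave -0.0066 for Ccnb2, -0.0022 for Birc5 and -0.011 for Racgap1. When 1 line was left out, differences ran from -0.034 to 0.063 for Cdk1, -0.077 to 0.039 for Ccna2, -0.026 to 0.033 for Ccnb2, -0.094 to 0.13 for Aurka, -0.022 to 0.084 for Aurkb, -0.053 to 0.044 for Birc5, -0.068 to 0.15 for Bub1, -0.055 to 0.068 for Bub1b, -0.10 to 0.16 for Ttk, -0.021 to 0.11 for Cenpa, -0.14 to 0.17 for Cenpe, -0.17 to 0.17 for Cenpf, -0.25 to 0.10 for Cenpk, -0.062 to 0.041 for Espl1, -0.12 to 0.19 for Kif18a, -0.04 to 0.10 for Kif20a, -0.14 to 0.013 for Kif23, -0.04 to 0.086 for Tpx2, -0.20 to 0.053 for Hmmr, -0.27 to 0.00078 for Anln, -0.025 to 0.024 for Racgap1, -0.10 to 0.064 for Top2a and -0.11 to 0.13 for Mki67. The cause was not tested. The mean level of the 47 genes was 9.37 to 12.96, above the filter at 6.70.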
